A study of Mus musculus with 10 samples.

Results

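Foxa1, Foxa2, Foxc1, Foxc2, Foxd1, Foxd2, Foxd3, Foxf2 and Foxl2 are 9 genes of the forkhead family, named by symbol out of the 22380 protein-coding genes of the mouse annotation GENCODE vM1. A ChIP-seq site was assigned to a gene when at least 1 bp of it lay in the gene body or within 5 kb on either side, in mm9 coordinates. The 9 windows cover 121857 bp on chromosomes 2, 4, 8, 9, 12 and 13. Another 34 forkhead genes of the annotation were examined by the same rule.

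Suz12 and H3K27me3 were mapped in mouse embryonic stem cells (ESCs) of the BayGenomics gene trap line XG122 with the genotype Suz12 Suz12TAP/+, which carry a TAP-tagged Suz12 at the endogenous locus beside an untagged allele. These cells expressed either a scramble shRNA or a Pcl3-shRNA, and each combination of antibody (anti-FlagM2 for Suz12-TAP, anti-H3K27me3) and shRNA gave 1 library. Pcl3 was mapped with anti-FlagM2 in E14 ESC clones that expressed Pcl3-shRNA6 or Pcl3-shRNA7 together with a TAP-tagged Pcl3 that these shRNAs do not recognize, so that binding was read from an introduced protein in cells with reduced endogenous Pcl3, in 1 library per shRNA. Input DNA of each of the 4 cell populations, with no antibody, made up the rest of the 10 libraries. The input of the Suz12 Suz12TAP/+ cells with Pcl3-shRNA is labelled Pcl3-shRNA by title and Pcl3-shRNA6 by its knockdown field.

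Polycomb repressive complex 2 (PRC2) places the repressive histone mark H3K27me3 and helps to keep developmental genes silent in ESCs. Suz12 is a core subunit that the complex needs for its stability and activity, and Pcl3 is an accessory subunit of the Polycomb-like family. Forkhead proteins are transcription factors that share a winged-helix DNA-binding domain, and many of them direct the formation of endoderm, mesoderm, neural crest or gonad, so that their genes are typical PRC2 targets in cells that have not yet chosen a lineage.

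The data consist of 4 lists of sites, each site with a position and 1 p-value. The Suz12 list (Suz12-TAP against input in scramble cells) has 8876 sites (median width 1100 bp). The Suz12-depleted list, the Suz12 sites with less Suz12 in Pcl3 shRNA cells, has 5722, the Pcl3 list 5242 (median width 850 bp) and the H3K27me3-depleted list, regions with less H3K27me3 in Pcl3 shRNA cells, 678. The strength of a site is its −log10 p-value, so that a larger number means a smaller p. For Suz12 and Pcl3 sites this p-value is that of binding. For H3K27me3-depleted sites it is that of the loss between scramble and Pcl3 shRNA cells, and not of the mark itself. A p-value too small for the number format was deposited as 0 and stands at the largest finite value of its list, 307.197 for Suz12 and 307.247 for Pcl3. The p-values of the Suz12-depleted list repeat those of binding, so that list says which sites lost Suz12 and not how much. The study also reported lower Suz12 mRNA and protein in Pcl3 shRNA ESCs, and the share of this in the losses was not tested here. Reads per library and per site are not in the lists, and each comparison rests on 1 library per condition. The authors' p-values of H3K27me3 loss compare such single libraries, and no test with replicates was possible. Wide sites also have small p-values, and the widths are given for that reason.

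All 9 forkhead genes had Suz12, Suz12-depleted and Pcl3 sites, and 2 of them, Foxc1 and Foxd2, had H3K27me3-depleted sites. Over all protein-coding genes, 28.8% had a Suz12 site, 20.6% a Suz12-depleted site, 14.7% a Pcl3 site and 3.13% an H3K27me3-depleted site. Among the 6442 genes with a Suz12 site, 71.7% had a Suz12-depleted site, 47.7% a Pcl3 site and 10.5% an H3K27me3-depleted site. The strongest Suz12 site of each of the 9 genes had a −log10 p of at least 201.799, the value of Foxd3. Among the 778 protein-coding genes whose strongest Suz12 site was at least that strong, 100.0% had a Suz12-depleted site, 99.2% a Pcl3 site and 29.3% an H3K27me3-depleted site. The counts at the 9 genes (9, 9 and 2) are thus near those of the genes at or above the Foxd3 value, in which these 9 are included.

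**Figure D1:**
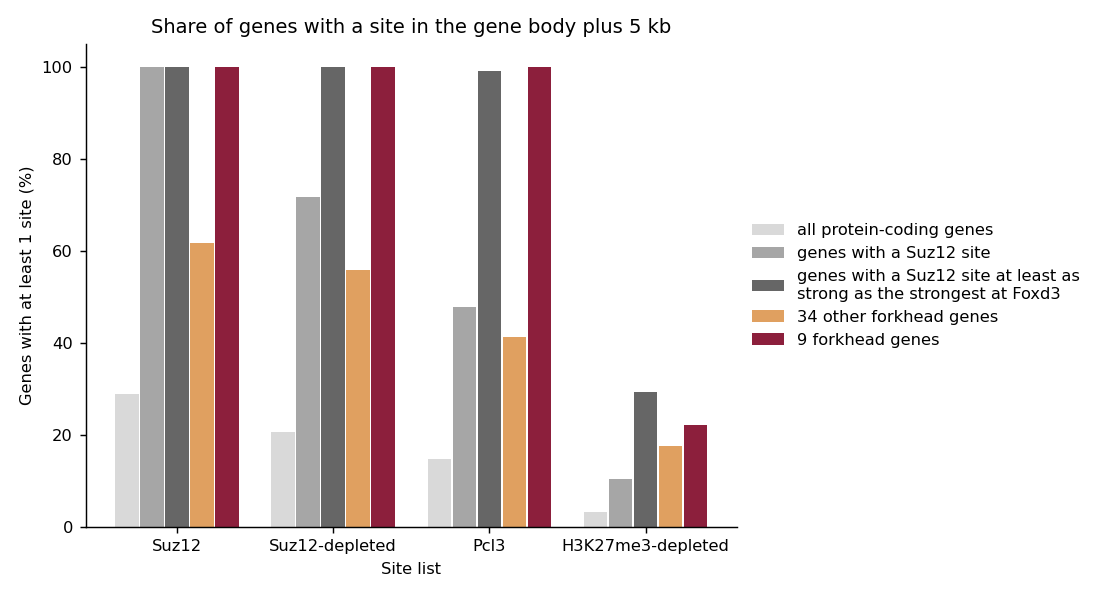
Share of genes with at least 1 site in the gene body plus 5 kb (y axis, %) for each of the 4 site lists (x axis). Bars stand for all 22380 protein-coding genes, the 6442 with a Suz12 site, the 778 with a Suz12 site at least as strong as the strongest at Foxd3, the lowest of the 9 genes, 34 other forkhead genes and the 9 forkhead genes, which reach 100.0% in 3 lists, as the strongly bound genes nearly do.

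The bases just before the gene start are shown for 6 of the 9 genes, all of which had their start in both a Suz12 and a Pcl3 site. The genes differ in how rich these bases are in CpG, the dinucleotide that marks CpG islands. Those shown either hold the hexamer marked in capitals or have the fewest CpG. Each run is 250 bp of mm9, 5′ to 3′ on the strand of the gene and ending at the base before the annotated start. Capitals mark GCGCGC, a CpG-rich hexamer that is its own reverse complement, so that a search of one strand covers both.
Foxa1 (mm9 chr12:58647109-58647358, minus strand): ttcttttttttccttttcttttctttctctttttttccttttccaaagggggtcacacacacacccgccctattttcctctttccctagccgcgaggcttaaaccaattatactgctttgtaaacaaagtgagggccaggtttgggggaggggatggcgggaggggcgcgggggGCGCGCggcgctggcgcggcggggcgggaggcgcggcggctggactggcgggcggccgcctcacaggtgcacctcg
Foxc1 (mm9 chr13:31898265-31898514, plus strand): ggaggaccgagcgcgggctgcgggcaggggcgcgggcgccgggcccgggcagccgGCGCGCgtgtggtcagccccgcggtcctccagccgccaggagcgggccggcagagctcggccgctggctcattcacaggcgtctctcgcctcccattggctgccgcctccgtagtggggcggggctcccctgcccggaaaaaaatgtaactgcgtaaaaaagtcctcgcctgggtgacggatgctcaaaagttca
Foxd2 (mm9 chr4:114581504-114581753, minus strand): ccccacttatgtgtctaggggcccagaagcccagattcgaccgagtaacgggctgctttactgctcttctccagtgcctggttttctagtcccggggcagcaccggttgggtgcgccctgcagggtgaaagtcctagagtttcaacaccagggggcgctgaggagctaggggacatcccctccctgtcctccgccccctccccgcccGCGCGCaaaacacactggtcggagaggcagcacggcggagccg
Foxf2 (mm9 chr13:31717435-31717684, plus strand): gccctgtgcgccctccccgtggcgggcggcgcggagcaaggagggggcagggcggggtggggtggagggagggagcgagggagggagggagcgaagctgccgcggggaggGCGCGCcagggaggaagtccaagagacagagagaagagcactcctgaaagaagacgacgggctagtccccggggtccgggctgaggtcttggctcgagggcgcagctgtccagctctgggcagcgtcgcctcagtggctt
Foxa2 (mm9 chr2:147872706-147872955, minus strand): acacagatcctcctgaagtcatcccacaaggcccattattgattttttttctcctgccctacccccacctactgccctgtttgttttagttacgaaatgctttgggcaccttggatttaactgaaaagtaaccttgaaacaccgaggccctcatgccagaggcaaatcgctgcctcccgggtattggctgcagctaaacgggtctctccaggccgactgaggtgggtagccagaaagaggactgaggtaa
Foxc2 (mm9 chr8:123639821-123640070, plus strand): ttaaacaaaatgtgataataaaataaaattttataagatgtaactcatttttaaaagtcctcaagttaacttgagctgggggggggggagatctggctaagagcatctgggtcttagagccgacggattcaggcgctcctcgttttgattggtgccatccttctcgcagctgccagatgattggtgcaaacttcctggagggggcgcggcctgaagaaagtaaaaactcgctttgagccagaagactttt

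GCGCGC was found before the start of 4 of the 9 genes, the first 4 of those shown, and in 13.2% of the same 250 bp of all 22380 protein-coding genes. The 9 stretches held a median of 21 CpG, against 8 over all protein-coding genes. For these stretches no separate value was computed over the genes with a Suz12 site. Whether the 9 genes differ from other Suz12-bound genes in CpG or GCGCGC before the start was therefore not tested. Among the 9, Foxc1 had the most, with 29 CpG or 11.6 per 100 bp. Foxd1, Foxd3 and Foxl2, which are not shown, had 12, 21 and 22 CpG and no GCGCGC. Foxa2, with 6 CpG or 2.4 per 100 bp, and Foxc2, with 8 CpG or 3.2 per 100 bp, had the fewest. Both of these genes nonetheless had a Suz12 site of 4250 bp with p written as 0 across the start. The match of the hexamer is a description of the sequence, and its part in binding was not tested.

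Suz12 sites numbered 32 at the 9 genes, from 1 at Foxl2 to 6 at Foxc2, and had a median width of 2375 bp. Their median −log10 p was 157, against 26.2 over the whole list. Together they covered 64.7% of the windows, and Pcl3 sites covered 74.7%. The Suz12-covered part of a window ran from 50.6% at Foxd1 to 73.9% at Foxa1, with a median of 70.5%. The median was 3.17% over the 6442 genes with a Suz12 site and 19.9% over the 778 at or above the Foxd3 value. The windows of the 9 genes were also shorter, with a median of 12722 bp against 25507 bp for the 778 genes, and the 9 genes have 1 to 4 coding exons and span 2373 to 5588 bp.

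**Figure D2:**
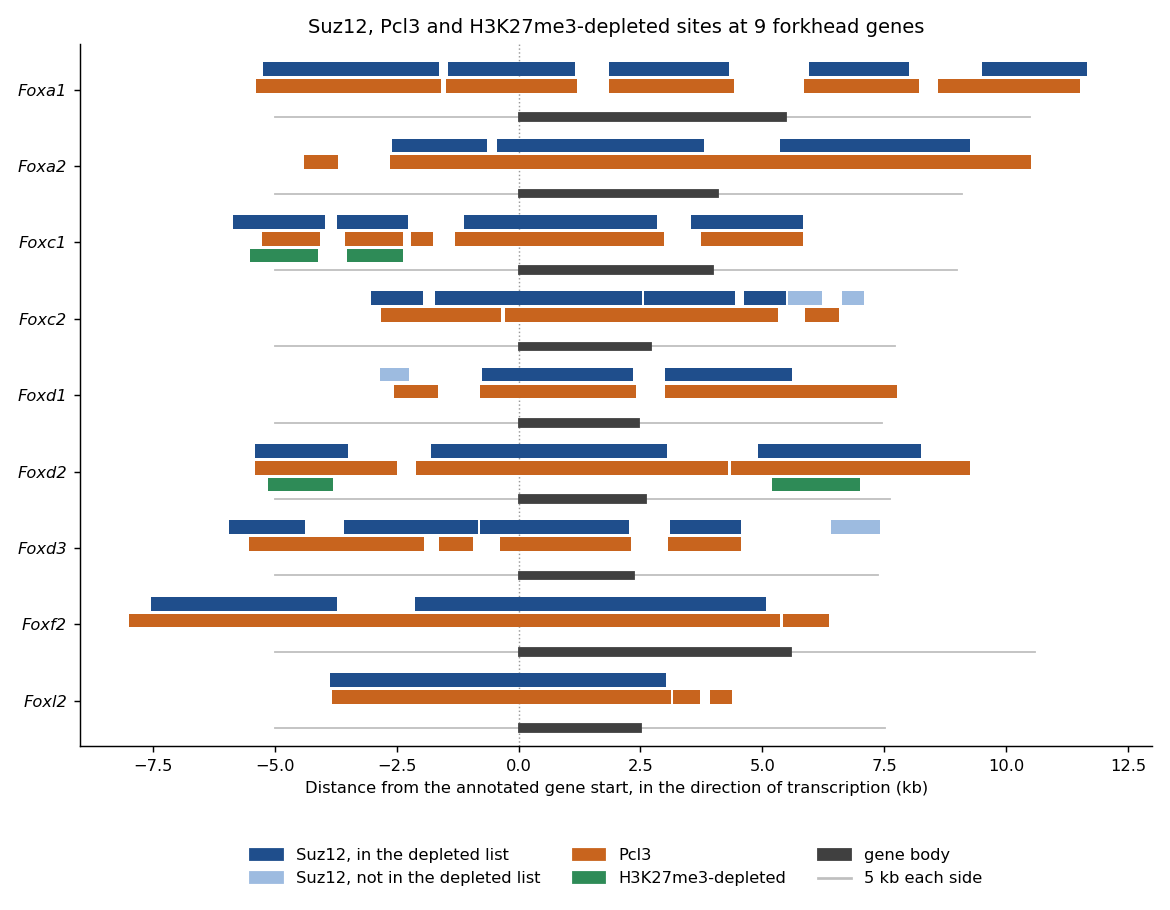
Position of every site at the 9 forkhead genes, as distance from the annotated gene start in kb along the direction of transcription (x axis), one gene per row (y axis). Blue bars are Suz12 sites (light blue where not in the depleted list), orange bars Pcl3 sites, green bars H3K27me3-depleted sites, dark bars gene bodies and grey lines the 5 kb each side; at 0, every gene has a Suz12 and a Pcl3 bar and none has a green bar.

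Every one of the 9 gene starts lay in a Suz12 site, in a Suz12-depleted site and in a Pcl3 site. Over the 6442 genes with a Suz12 site, 63.3% had their start in a Suz12 site, 49.2% in a Suz12-depleted site and 25.4% in a Pcl3 site. Over the 778 genes at or above the Foxd3 value, the shares were 86.1%, 84.3% and 74.2%. The Suz12 site across the start had p written as 0 at 7 genes (Foxa2, Foxc1, Foxc2, Foxd1, Foxd2, Foxf2 and Foxl2), and the Pcl3 site across the start had p written as 0 at the same 7. Foxa1 and Foxd3 were the exceptions in both lists. Of all genes with a Suz12 site, 470 (7.30%) had one with p written as 0, as did 60.4% of the 778 genes at or above the Foxd3 value. A Pcl3 site with p written as 0 was found at 3.52% of the genes with a Suz12 site and at 28.5% of the 778. Since 7 genes are tied in strength, all 9 are also given by the width of their widest Suz12 site, which is not an order of strength. At Foxa1 that site lay before the start, and at the other genes it lay across it. The widest Suz12 site was 7200 bp at Foxf2 and 6900 bp at Foxl2, then 4850 bp at Foxd2, 4250 bp at Foxa2 and at Foxc2, 3950 bp at Foxc1, 3600 bp at Foxa1, 3100 bp at Foxd1 and 3050 bp at Foxd3. Without replicates it is not known which neighbours in this order differ beyond the spread between cultures.

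**Figure D3:**
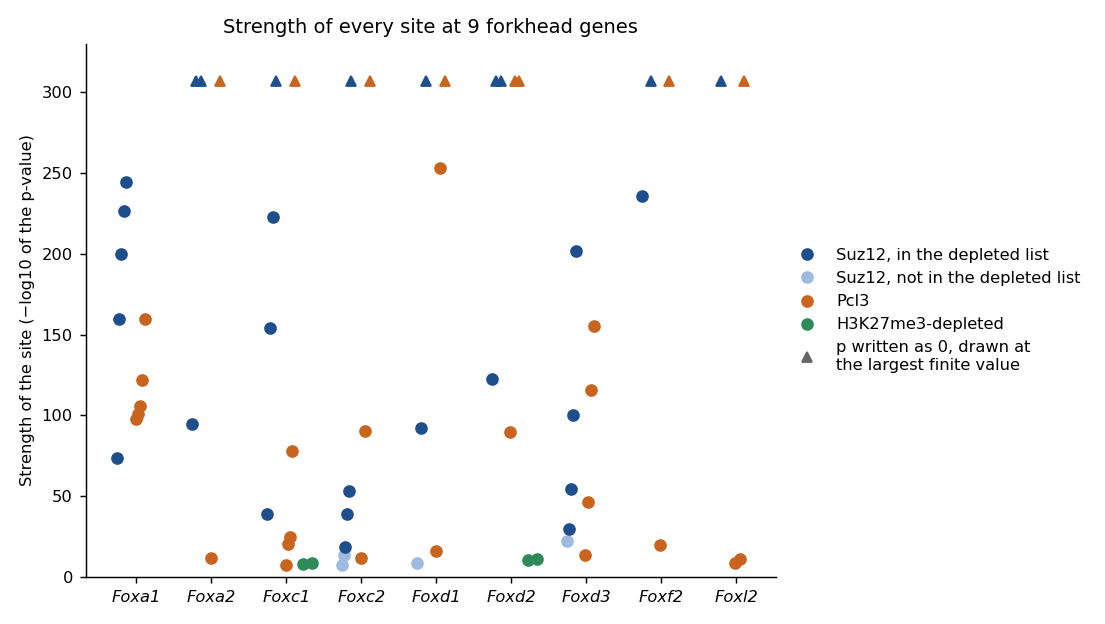
Strength of every site as −log10 of its p-value (y axis) at each of the 9 forkhead genes (x axis). Points are single sites, coloured by list as Suz12 in the depleted list, Suz12 not in it, Pcl3 and H3K27me3-depleted, and triangles are sites with p written as 0, drawn at the largest finite value; Foxa1 and Foxd3 have no triangle, and the 4 light blue Suz12 points lie at 21.9 or below.

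Foxa1 and Foxa2 encode pioneer factors that open chromatin for the formation of endoderm organs such as liver, lung and pancreas, and Foxa2 also serves in the node and floor plate. Foxa1 (ENSMUSG00000035451.6, chr12:58641618-58647108, minus strand) had 5 Suz12 sites in a nearly even row from 5242 bp before the start to 11657 bp past it. Their strengths were 245 for the site before the start (3600 bp), 226 for the site across it (2600 bp), 200.2 over most of the coding sequence (2450 bp), and 160 and 73.8 past the gene end. Strength was thus highest before the start and lowest at the site farthest past the gene, with no site at p written as 0. The 5 Pcl3 sites lay at the same places, with strengths of 160, 97.5, 106, 122 and 101 in that order. Every Suz12-covered base of the window was also in a Pcl3 site, and the edges of the sites across the start were 50 bp apart on either side.

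Foxa2 (ENSMUSG00000037025.5, chr2:147868613-147872705, minus strand) had 2 Suz12 sites with p written as 0 and a weaker one of 1950 bp before the start (strength 94.9). The first of them, chr2:147868901-147873150, spanned the start and the coding exons, and the second, chr2:147863451-147867350, lay past the gene end. This second site also held the start of 9030622O22Rik, a processed transcript on the same strand whose start is 6766 bp from that of Foxa2. A single Pcl3 site of 13150 bp with p written as 0 covered all 3, and only 0.477% of the Pcl3 list was wider. The other Pcl3 site, 700 bp wide and 3696 bp before the start at its nearer edge (strength 11.8), shared no base with a Suz12 site.

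Foxc1 and Foxc2 are close relatives that act in paraxial mesoderm, blood and lymphatic vessels, and the tissues of the anterior eye and heart. At Foxc1 (ENSMUSG00000050295.2, chr13:31898515-31902504, plus strand, 1 coding exon), the Suz12 site across the start, chr13:31897401-31901350, had p written as 0 and held all the coding sequence. A site over the gene end had a strength of 223 (2300 bp), and the 2 sites before it had strengths of 154 (1900 bp) and 38.9 (1450 bp). The 2 sites before the start were weaker than the site across it in both the Suz12 and the Pcl3 list. The Pcl3 sites there had strengths of 24.4 and 20.5, each 1200 bp wide, against a strength of 78.1 for the Pcl3 site over the gene end. The fifth Pcl3 site, of 450 bp (strength 7.49), touched no Suz12 site.

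Foxc2 (ENSMUSG00000046714.6, chr8:123640071-123642792, plus strand, 1 coding exon) had the most Suz12 sites, 6, and those after the site across the start were weaker the farther they lay from it. The site across the start, chr8:123638351-123642600, had p written as 0. Past it followed sites with strengths of 53.2 (1850 bp), 18.4 (850 bp), 13.5 (700 bp) and 7.37 (450 bp), and before it lay 1 with a strength of 39.1 (1050 bp). The last 2 past the gene were not in the Suz12-depleted list. Pcl3 had 3 sites, of which the one across the start was 5600 bp wide with p written as 0, and the others had strengths of 90.3 and 11.8. A long gene model, Gm20388, spans the locus, so that the bases around Foxc2 count as intronic in the annotation.

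Foxd1, Foxd2 and Foxd3 are single-coding-exon genes of a subfamily known from kidney stroma and retina (Foxd1), from kidney and somites (Foxd2) and from neural crest and pluripotent cells (Foxd3). Foxd1 (ENSMUSG00000078302.3, chr13:99124200-99126660, plus strand) had its start in the Suz12 site chr13:99123451-99126550 and in a Pcl3 site whose edges were 50 bp from those of Suz12 on each side, both with p written as 0. Another Suz12 site past the gene end was 2600 bp wide with a strength of 92.3. The Pcl3 site there began at the same base but ran on to 4750 bp with a strength of 253, so that here Pcl3 was wider than Suz12. The remaining Suz12 site, 600 bp wide and before the start (strength 8.34), was not in the depleted list.

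Foxd2 (ENSMUSG00000055210.3, chr4:114578885-114581503, minus strand) had 2 Suz12 and 2 Pcl3 sites with p written as 0. The Suz12 site across the start, chr4:114578451-114583300, also held the start of the long noncoding RNA 9130206I24Rik, which is read in the opposite direction from 359 bp away. The other strong Suz12 site, chr4:114573251-114576600, lay past the gene end over the start of the processed transcript 9130410C08Rik. Pcl3 covered 96.4% of the Foxd2 window, the highest share of the 9. The remaining Suz12 site and the remaining Pcl3 site lay upstream with strengths of 123 and 89.9.

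Foxd3 (ENSMUSG00000067261.3, chr4:99322990-99325362, plus strand) had the weakest of the strongest Suz12 sites, with a strength of 202 at chr4:99322201-99325250 across the start. The Pcl3 site there had a strength of 155 and was 2700 bp wide. The 2 Suz12 sites before it had strengths of 100.1 (2750 bp) and 54.7 (1550 bp), and those past it strengths of 29.9 (1450 bp) and 21.9 (1000 bp). Foxd3 thus had a site across the start that was stronger than its neighbours in both lists. Its Suz12 site was weaker than those across the other 8 starts, and its Pcl3 site was weaker than those of 7 genes and stronger than that of Foxa1. Pcl3 sites covered 80.0% of its Suz12-covered bases, the lowest share of the 9 genes. The start of Gm12688, a processed transcript on the other strand 1316 bp away, lay in a Suz12 and a Pcl3 site, as did that of the annotated miRNA BX005053.1. Expression was not measured in these libraries.

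Foxf2, which acts in the mesenchyme of gut, palate and brain vessels, is at chr13:31717685-31723272 on the plus strand (ENSMUSG00000038402.2). It had the widest Suz12 site of the 9, chr13:31715551-31722750 with p written as 0, and a second of 3800 bp farther upstream (strength 236) that held the start of the processed transcript Gm11378. One Pcl3 site of 13350 bp with p written as 0 joined both. A Pcl3 site of 950 bp over the gene end (strength 19.7) shared no base with Suz12.

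Foxl2, the regulator of ovarian granulosa cells and of the eyelid, is at chr9:98856026-98858545 on the plus strand (ENSMUSG00000050397.2). It had a single Suz12 site, chr9:98852151-98859050, 6900 bp wide with p written as 0. The Pcl3 site matched it, at 6950 bp and with edges 50 and 100 bp away. This pair held the whole gene and the start of Foxl2os, a noncoding RNA on the opposite strand that begins 297 bp from Foxl2. Small Pcl3 sites of 550 bp (strength 11.4) and 450 bp (strength 8.37) followed past the gene without Suz12.

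Pcl3 sites numbered 30 at the 9 genes, with a median width of 2625 bp. Of the 32 Suz12 sites, 30 (93.8%) shared at least 1 bp with a Pcl3 site, against 44.3% of all Suz12 sites, and the other 2 were the last site past Foxc2 and the last past Foxd3. The sites at the 9 genes were wider than the list, and of the 1845 Suz12 sites of at least 2000 bp, a limit chosen after the values were seen, 91.8% shared bases with Pcl3. With centers within 500 bp in place of a shared base, the shares were 53.1% at the 9 genes and 35.6% over the list. In the other direction, 25 of the 30 Pcl3 sites shared bases with Suz12, against 76.9% of the Pcl3 list. The 5 without Suz12, at Foxa2, Foxc1, Foxf2 and Foxl2, were 450 to 950 bp wide, and the strongest of them was at 19.7 at Foxf2. Over the bases of each window, 80.0% to 100.0% of the Suz12-covered part lay under Pcl3 (median 99.3%), and 70.1% to 91.1% of the Pcl3-covered part lay under Suz12 (median 86.2%). The same anti-FlagM2 antibody served for both proteins, in different cell lines, and its binding in cells without a tagged protein was not analysed here.

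The centers of the strongest Pcl3 sites of Foxc1 and Foxd1 fell in coding sequence and reach into the part that encodes the forkhead domain. They are shown because both sites had p written as 0 and lie in sequence that paralogs share. Each run is 200 bp on the strand of the gene, with GCGCGC in capitals; overlapping matches merge into one longer run of capitals at Foxc1.
Foxc1 (mm9 chr13:31899251-31899450, plus strand): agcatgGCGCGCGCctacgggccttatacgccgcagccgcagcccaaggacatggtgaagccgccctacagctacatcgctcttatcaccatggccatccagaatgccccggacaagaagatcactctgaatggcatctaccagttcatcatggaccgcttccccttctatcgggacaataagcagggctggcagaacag
Foxd1 (mm9 chr13:99124901-99125100, plus strand): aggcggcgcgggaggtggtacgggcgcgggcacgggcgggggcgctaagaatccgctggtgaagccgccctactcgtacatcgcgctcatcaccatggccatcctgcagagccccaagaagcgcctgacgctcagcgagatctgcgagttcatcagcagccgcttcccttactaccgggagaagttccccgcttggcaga

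Set side by side without gaps, at the offset that gave the most matches, 117 of 196 bases (59.7%) were the same in these stretches. Since the authors kept reads of 30 nt that aligned to 1 place in the genome, sequence that paralogs share could drop out. Of the distinct 30 nt runs in each window, on either strand, 14 (Foxa1) to 60 (Foxd2) also occurred in the window of another of the 9 genes, out of 12331 to 15419 runs a window. With the windows of the other forkhead genes added, bases inside the same window left out, 26 (0.169%, Foxa1) to 237 (1.89%, Foxd2) runs were shared. Copies elsewhere in the genome and reads that align with mismatches were not examined.

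Of the 32 Suz12 sites, 28 (87.5%) were in the depleted list, against 64.5% of all Suz12 sites. This count moves with strength, since 100.0% of all Suz12 sites with a −log10 p of at least 100 were depleted and 4.96% of those under 10. The 4 sites at the forkhead genes that were not in the depleted list were among the 5 weakest of the 32. They were chr8:123645601-123646300 and chr8:123646701-123647150 past Foxc2, chr13:99121351-99121950 before Foxd1 and chr4:99329401-99330400 past Foxd3. Their −log10 p values were 13.5, 7.37, 8.34 and 21.9. Of all Suz12 sites within 1 unit of these values, 37.3%, 2.31%, 4.47% and 75.9% were depleted. The weakest depleted site, chr8:123644701-123645550 past Foxc2, had a −log10 p of 18.4, below that of the Foxd3 site which was not depleted. None of the 4 held the start of one of the 9 genes, and the Suz12 site across each start was in the depleted list. For the 4, kept Suz12 and a loss that missed the threshold cannot be told apart. The paper states that changes may be harder to detect at less significant sites.

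**Figure D4:**
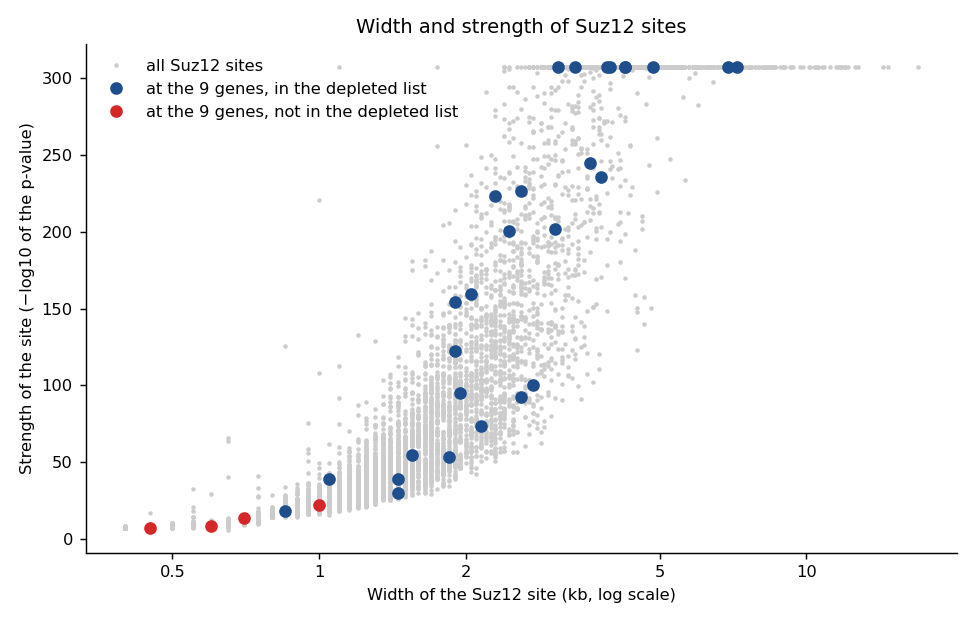
Width in kb on a log axis (x axis) and strength as −log10 p (y axis) of all 8876 Suz12 sites in grey, and of the 32 at the 9 forkhead genes in blue where depleted and red where not. The sites at the 9 genes spread over most of the range of the list, from 450 to 7200 bp, and the 4 red points lie in its lower left part, at 1000 bp or narrower.

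H3K27me3-depleted sites numbered 4, with 2 at Foxc1 and 2 at Foxd2, and their strengths are those of the loss. At Foxc1 both lay upstream, at chr13:31893001-31894400 (strength 7.70), from 5514 to 4115 bp before the start, and at chr13:31895001-31896150 (strength 8.47), from 3514 to 2365 bp before it. At Foxd2 they lay on either side of the gene, at chr4:114585301-114586650 (strength 10.5), from 5147 to 3798 bp before the start, and at chr4:114574501-114576300 (strength 10.9), from 5203 to 7002 bp past it. The site past Foxd2 also held the start of 9130410C08Rik. All bases of these sites that lay inside the windows were under Suz12 and Pcl3 sites. The first Foxc1 site began outside the window, ahead of the Pcl3 site there, which began at chr13:31893251. Of the whole H3K27me3-depleted list, 91.3% overlapped Suz12 by 1 bp or more. At both genes the sites fell on the flanking Suz12 sites and left out the site across the start, the strongest at Foxc1. The calls rest on the window and the threshold, since neither gene had such a site in the gene body, within 2 kb of it or at a p-value of at most 1e-12, and only 1 of the 2 had one at 1e-10.

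Neither Foxc1 nor Foxd2 had its start in an H3K27me3-depleted site, and of all 700 protein-coding genes with such a site, 134 (19.1%) had their start in one. The gap from the gene to the nearest H3K27me3-depleted site was 25271 bp at Foxc2, 169729 bp at Foxf2, 359746 bp at Foxa2, 667043 bp at Foxa1, 911806 bp at Foxl2, 1542891 bp at Foxd1 and 3325239 bp at Foxd3. These 7 genes had Suz12-depleted sites and no recorded loss of H3K27me3 nearby. The list gives no level of H3K27me3 in scramble cells, so a gene that kept the mark and a gene whose loss missed the p-value threshold cannot be told apart. In the whole list, 29.2% of the H3K27me3-depleted sites lay on chromosome 11, which holds none of the 9 genes. The median −log10 p was 8.23 on the other chromosomes, and the 4 sites here had 7.70 and 8.47 at Foxc1 and 10.5 and 10.9 at Foxd2.

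The central 200 bp of these 4 sites are shown on the strand of the gene, as the places at which both Suz12 and H3K27me3 were recorded as lost. None of the 4 holds GCGCGC, which was found in 9.59% of the same 200 bp over the H3K27me3-depleted list and in 18.3% over the Pcl3 list.
Foxc1 (mm9 chr13:31893601-31893800, plus strand): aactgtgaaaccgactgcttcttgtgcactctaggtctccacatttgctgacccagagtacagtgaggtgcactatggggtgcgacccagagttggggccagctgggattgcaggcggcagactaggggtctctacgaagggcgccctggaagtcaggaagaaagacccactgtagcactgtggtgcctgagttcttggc
Foxc1 (mm9 chr13:31895476-31895675, plus strand): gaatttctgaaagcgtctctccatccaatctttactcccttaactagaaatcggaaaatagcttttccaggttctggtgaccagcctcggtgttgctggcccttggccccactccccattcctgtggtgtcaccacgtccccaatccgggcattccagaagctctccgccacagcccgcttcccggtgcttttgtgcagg
Foxd2 (mm9 chr4:114585876-114586075, minus strand): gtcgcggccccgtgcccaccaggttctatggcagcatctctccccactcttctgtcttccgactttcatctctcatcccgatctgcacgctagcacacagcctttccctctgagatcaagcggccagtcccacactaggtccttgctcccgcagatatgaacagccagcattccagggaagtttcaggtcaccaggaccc
Foxd2 (mm9 chr4:114575301-114575500, minus strand): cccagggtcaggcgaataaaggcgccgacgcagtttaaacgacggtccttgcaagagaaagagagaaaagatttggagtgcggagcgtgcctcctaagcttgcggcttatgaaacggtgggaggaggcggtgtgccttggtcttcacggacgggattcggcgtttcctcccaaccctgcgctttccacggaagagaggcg

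Both Foxc1 runs and the first Foxd2 run held 2.5, 4.0 and 4.0 CpG per 100 bp in the order shown, and the last, near the start of 9130410C08Rik, held 9.0. These values bracket the median of 4.24 CpG per 100 bp over whole sites of the H3K27me3-depleted list.

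Within each window CpG was denser inside Suz12 sites than outside them, in 9 of 9 genes, as it was in 99.7% of the 6442 genes with a Suz12 site and in 100.0% of the 778 at or above the Foxd3 value. Inside, the density was 4.32 (Foxf2) to 6.08 (Foxc1) CpG per 100 bp with a median of 5.05, and outside it was 0.794 (Foxa2) to 2.20 (Foxd3) with a median of 1.31. The densest single site was the one across the Foxd1 start, with 9.48 CpG per 100 bp. Taken site by site, the 32 Suz12 sites had a median of 4.03 CpG per 100 bp, lower than the 5.41 of the whole list. They were also wider, and the sites at the 778 genes at or above the Foxd3 value, with a median width of 2200 bp, had a median of 4.40. In the central 500 bp, where width plays no part in the length scored, the medians were 4.50 at the 9 genes and 7.00 over the list.

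GCGCGC occurred in 16 of the 30 Pcl3 sites (53.3%), in 54.8% of those at the 778 genes at or above the Foxd3 value and in 48.5% of the whole Pcl3 list. In the central 500 bp it occurred in 6 of the 30 (20.0%) and in 33.7% of the list. Per kb of Pcl3 site there were 0.420 matches at the 9 genes, 0.744 at the 778 genes and 0.948 over the list. The density was thus lower at these forkhead genes than over the list and the sites were wider, while the share of whole sites with a match was close to that of both backgrounds. The largest number of matches in a site, 6, was in the Suz12 and the Pcl3 site across the Foxc1 start, and no match was in the Suz12 or the Pcl3 site before the Foxa1 start, the strongest of that gene.

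Of the 34 other forkhead genes examined, 21 (61.8%) had a Suz12 site, 19 (55.9%) a Suz12-depleted site, 14 (41.2%) a Pcl3 site and 6 (17.6%) an H3K27me3-depleted site, and 12 had no site in any list. Their strongest Suz12 sites had a median −log10 p of 133 over the 21 genes, and 9 of the 21 were at least as strong as that of Foxd3, the weakest of the 9. A p-value written as 0 was found at 8 of them, Foxb1, Foxb2, Foxd4, Foxe1, Foxe3, Foxf1a, Foxl1 and Foxq1, which are therefore tied as the strongest. Of the 9 genes described here, 7 also had a Suz12 site with p written as 0, and Foxa1 and Foxd3 did not. In the strength of their Suz12 sites, the 9 genes thus did not stand alone in the family. One Suz12 site, the last past Foxc2, lay in the windows of both Foxc2 and Foxl1. Of the 34 Suz12 sites at the other forkhead genes only, 3 were not in the depleted list.

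**Figure D5:**
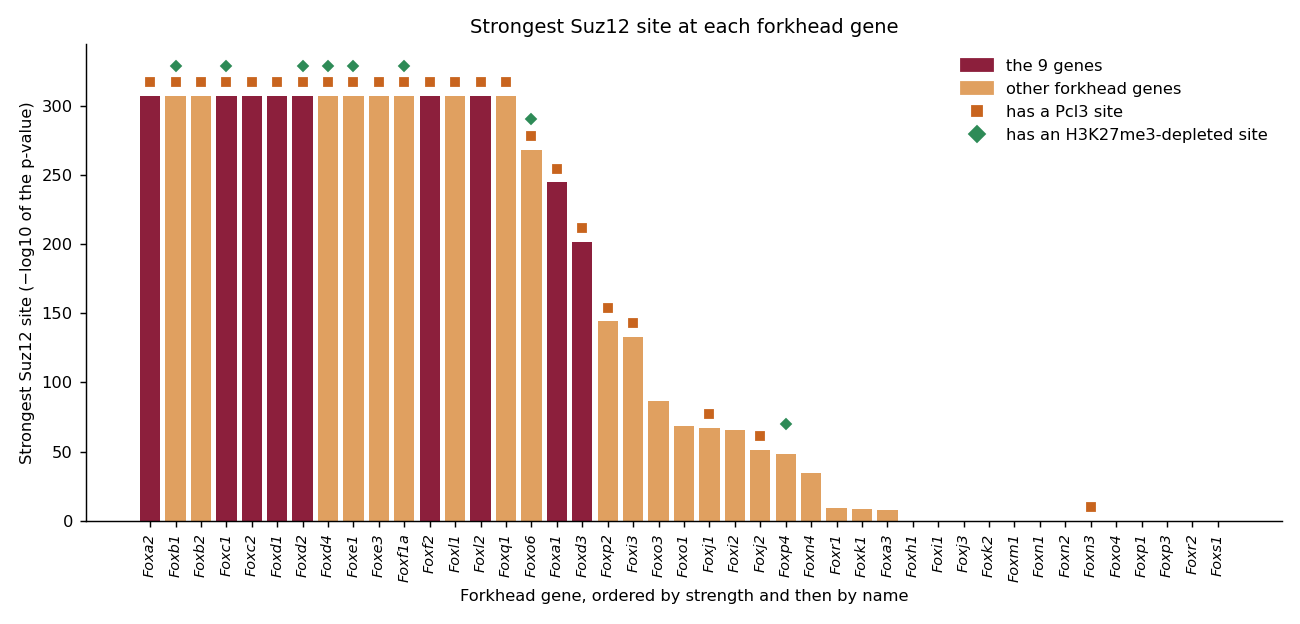
Strongest Suz12 site of each of the 43 forkhead genes examined as −log10 p (y axis), ordered by strength and then by name (x axis), with 0 where a gene had no Suz12 site and p written as 0 drawn at the largest finite value. Dark bars are the 9 genes, light bars the others, squares mark genes with a Pcl3 site and diamonds genes with an H3K27me3-depleted site; the 9 genes lie among the 18 strongest.

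H3K27me3-depleted sites were found at Foxb1 (strength 7.78), Foxd4 (strength 7.19), Foxe1 (strength 7.37), Foxf1a (strength 8.63), Foxo6 (strength 9.42) and Foxp4 (strength 11.04) among the other forkhead genes. Foxp4 had 3 Suz12 sites, the strongest at 48.2, and no Pcl3 site, and the other 5 had all 4 kinds of site. Several of the 9 genes have a forkhead neighbour. Foxe3, a lens regulator, lies 16178 bp from Foxd2 and had a Suz12 site of 2400 bp with p written as 0, but no H3K27me3-depleted site. Foxf1a lies 29220 bp and Foxl1, annotated as a pseudogene in GENCODE vM1, 9048 bp from Foxc2, and both had Suz12 sites with p written as 0. The widest at Foxf1a was 7700 bp, wider than any at the 9 genes. Foxq1 lies 64846 bp from Foxf2 and had a single Suz12 site of 3550 bp with p written as 0 and a Pcl3 site with a strength of 103. The H3K27me3-depleted site nearest to Foxc2, 25271 bp away, lay outside its window.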

How the data were processed

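ChIP-seq was performed in mouse ESCs in 10 libraries (6 ChIP, 4 input), with 1 library per condition and 2 for Pcl3-TAP. The authors aligned single-end 30-nucleotide reads to mm9 with Bowtie, as the submitters' processing notes and the methods of the study state, and kept uniquely aligned reads. Paired libraries were scaled to equal background, 400 bp windows were tested with the Skellam distribution at 1e-07, and overlapping windows were joined. The deposited values are 1 p-value per site, in 4 lists. How the libraries of Pcl3-shRNA6 and Pcl3-shRNA7 entered 1 list is not given in the sources used here. Read depth is not in the lists, so no precision of a single site can be given, and repeated sequence is left out by unique alignment.

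From these lists, overlaps of at least 1 bp with gene windows (GENCODE vM1, mm9, gene body plus 5 kb), covered bases, widths, −log10 p, CpG per 100 bp and matches of GCGCGC were computed. Shares over all protein-coding genes and all sites served as background, and no test was run. Overlap and coverage functions were tested on simulated data and differed in 0 of 1000 simulated windows from a direct search. The genes named are the 9 genes, the other forkhead genes within 200 kb of them, those with an H3K27me3-depleted site and those with the strongest Suz12 site (8 tied in place of 3), and annotated genes whose start lies in a site of the 9. Gm20388 is named outside this rule, since it spans the Foxc2 locus. The 9 genes, the lists and the rules were chosen with earlier results of these data known. Sequences were read from the mm9 genome, and no protein sequences were used. One item is not reported here. Alternatives were other windows, centers in place of shared bases, p-values of at most 1e-10 or 1e-12, joined sites, width as strength and other stretches of sequence. Scripts ran in Python 3.11.15 with pandas 2.3.3, numpy 2.4.6, pysam 0.24.0 on an index made by samtools 1.23.1, statsmodels 0.14.6 for intervals and matplotlib 3.10.9 for plots.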

Additional observations from a re-analysis of the deposited data

How the results depend on the processing

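Suz12, Suz12-depleted and Pcl3 sites were found at 9 of 9 genes under every window, center and p-value alternative tried. The gene starts were recomputed only under looser rules, which cannot lose a start. Of 166 values recomputed for 32 results, 114 were kept and 52 were not. A count was kept within 1.5 times, a share of genes or sites within its 95% Wilson interval, and a median or a covered share only if equal, also where an alternative has another unit. The H3K27me3-depleted calls depended on the window and the threshold: 0 members with the gene body alone, with 2 kb each side or with 2 kb around the start (0 sites), 1 member and 2 sites at p of at most 1e-10, and 0 members and 0 sites at 1e-12. With the gene body alone, each of the other lists had 12 sites at the 9 genes, 2 other forkhead genes had an H3K27me3-depleted site and the share among Suz12-bound genes was 8.78%. With 2 kb each side, Suz12 sites numbered 21 and that share was 9.38%, and with 10 kb it was 11.4%. With 2 kb around the start, Suz12 and Suz12-depleted sites numbered 14, Pcl3 sites 16, genes with an H3K27me3-depleted site 352, other forkhead genes with one 1, and the share was 6.57%. At 1e-10 and 1e-12, the shares of Suz12-bound genes were 80.9% and 85.1% for Suz12-depleted, 44.7% and 42.7% for Pcl3 and 4.09% and 2.54% for H3K27me3-depleted sites, with 240 and 141 genes and 1 and 0 other forkhead genes having the last. Joining sites less than 1 kb apart left 18 Suz12, 16 Suz12-depleted and 11 Pcl3 sites. With centers within 500 bp, 53.1% of the Suz12 sites were shared with Pcl3. Without sites written as 0, the median strongest Suz12 −log10 p was 162 over the 8 genes left. With width in place of strength and all sites kept, the median widest site of the 9 genes was 4250 bp. Coverage was 88.5% (Suz12 and Suz12-depleted), 91.7% (Pcl3) and 0% (H3K27me3-depleted) of gene bodies, and 44.5%, 42.6%, 50.9% and 2.69% with 10 kb each side. CpG density was 4.5 and 4.75 per 100 bp in 500 and 1000 bp around the center, and GCGCGC was in 20.0% and 26.7% of the Pcl3 sites. An annotation of another build was not used in its place. No paired analysis was possible because no test was run and each condition has 1 library.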
